A study of Mus musculus with 2 samples.

Results

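The regions described here are short stretches of continuous RNA read coverage, called contigs, that were covered at a high level in the gonadal fat pad of the mouse. They were chosen from the deposited contig table as those no longer than 200 bp with an RPKM of 10 or more and an irreproducible discovery rate (IDR) of 0.01 or less. RPKM is a read count scaled by region length and library size, and IDR is low where both replicates rank a region alike. The rule kept 3788 of 880859 contigs, called short high-level contigs here. Length, RPKM and IDR chose them, so those values are descriptions and no test was made on them. Each contig carries 1 RPKM over both libraries together, with no spread between replicates.

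The tissue is the white fat depot attached to the gonads, taken from adult C57BL/6J mice of 8 weeks. There was 1 group of 2 libraries, named biological replicates 1 and 2 in the labels, each from a pool of males and females. No condition, genotype or treatment was compared. Polyadenylated RNA over 200 nt was read strand by strand as pairs of 76 nt. Both libraries carry the same donor identifier, so the labels do not give the number of mice behind each, and the spread between the libraries may be technical. Expected counts on genes summed to 47106979 in replicate 1 and 54129473 in replicate 2. Fat cell genes were found together with genes of the epididymis, the coiled duct next to the testis where sperm ripen. All 28 adipocyte markers and all 33 epididymis markers were at 1 TPM (a transcript abundance scaled by length and library) or more in both libraries. Their medians were 463.8 and 563.5 TPM for the adipocyte list and 917.3 and 785.3 TPM for the epididymis list, in replicates 1 and 2.

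A spliced messenger RNA is copied from exons that lie far apart in the gene, so its reads fall on the genome as separate islands, 1 per exon. Reads that cross from exon to exon mark the island's edges: an intron ends at the acceptor side, where the exon begins, and the next intron starts at the donor side, where the exon ends. Vertebrate inner exons are mostly short, and the last bases of an exon, often AG, are part of the donor site that the splicing machinery reads. A contig with a junction at each edge therefore has the outline of 1 inner exon.

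The sequences below show exons that short high-level contigs outlined. They are from GENCODE M21 transcripts on build GRCm38, are written in the sense of the transcript and carry the last 2 exon bases in capitals. The first 5 are exons under the matched contigs of highest RPKM, of different genes. The Pkm, Fbn1 and Ntrk2 exons are those of genes described later.
C3 exon 10: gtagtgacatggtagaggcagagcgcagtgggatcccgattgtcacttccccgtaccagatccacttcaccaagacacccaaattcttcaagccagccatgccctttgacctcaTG
Selenof exon 2: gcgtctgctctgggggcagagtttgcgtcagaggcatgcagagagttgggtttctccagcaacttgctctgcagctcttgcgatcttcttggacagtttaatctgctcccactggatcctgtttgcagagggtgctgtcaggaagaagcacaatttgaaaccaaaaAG
Rab7 exon 3: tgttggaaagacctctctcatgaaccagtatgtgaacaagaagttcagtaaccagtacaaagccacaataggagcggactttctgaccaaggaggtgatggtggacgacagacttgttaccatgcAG
Sort1 exon 9: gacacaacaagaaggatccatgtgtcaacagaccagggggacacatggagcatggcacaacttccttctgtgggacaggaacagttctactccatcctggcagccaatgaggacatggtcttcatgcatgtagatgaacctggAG
Pcx exon 8: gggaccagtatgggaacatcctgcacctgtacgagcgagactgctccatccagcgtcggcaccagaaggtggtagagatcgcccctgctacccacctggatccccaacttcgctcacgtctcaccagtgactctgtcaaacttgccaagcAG
Pkm exon 4: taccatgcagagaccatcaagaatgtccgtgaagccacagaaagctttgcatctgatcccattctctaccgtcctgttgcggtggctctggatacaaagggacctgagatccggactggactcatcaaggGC
Fbn1 exon 36: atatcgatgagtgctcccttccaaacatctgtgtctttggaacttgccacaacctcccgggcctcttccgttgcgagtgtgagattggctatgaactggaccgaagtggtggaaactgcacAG
Fbn1 exon 3: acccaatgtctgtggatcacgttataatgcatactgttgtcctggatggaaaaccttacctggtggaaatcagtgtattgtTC
Ntrk2 exon 11 of the 12-exon transcript: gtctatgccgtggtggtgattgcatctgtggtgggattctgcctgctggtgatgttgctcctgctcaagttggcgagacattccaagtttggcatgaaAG
Of these exons, C3 ended in TG, Pkm in GC and Fbn1 exon 3 in TC, while the other exons printed here ended in AG. Over all matched exons of short high-level contigs, 54.5% ended in AG, against 57.5% for short contigs below the RPKM limit. A final G stood in 80.6%, against 80.1%.

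The short high-level contigs were 12 to 200 bp long, with a median of 134 bp. Their RPKM had a median of 15.9, quartiles of 12.4 and 24.5, and a highest value of 5020. The IDR was 0 for 3743 of them and 0.01 for 45. Together they held 1.40% of the summed product of RPKM and length over all contigs. Their 10 highest held 15.5% of the product of the whole set, while 3 in 4 contigs stood at an RPKM of 24.5 or less. At the length limit, 67 contigs of 198 to 200 bp were inside and 67 of 201 to 203 bp were outside. At the RPKM limit, 23 contigs at 10 were inside, and 54 contigs with a median of 9.95 and up to 9.99 were just outside. At the IDR limit, 45 contigs at 0.01 were inside and 5 at 0.02 outside.

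They lay on all nuclear chromosomes, with 330 on chromosome 2, 284 on chromosome 1 and 3 on chromosome Y, and none lay on the mitochondrial chromosome. As a share of each chromosome's contigs, the autosomes ran between 0.321% on chromosome 18 and 0.508% on chromosome 15, and chromosome X stood at 0.572%. The plus strand held 50.8%.

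Most short high-level contigs touched splice junctions, but few ended exactly on them. Within 2 bp, 832 (21.96%) had a junction at both edges, 766 (20.2%) only at the acceptor side, 1084 (28.6%) only at the donor side and 1106 (29.2%) at neither. Within 10 bp, those counts were 1954 (51.6%), 632 (16.7%), 806 (21.3%) and 396 (10.5%). A junction end on the same strand lay inside the contig or within 10 bp of it for 3703 (97.8%). The class a contig falls in thus depends on the distance allowed. All deposited junctions counted here, with no limit on reads or IDR. Of the 4841 junctions within 2 bp of a contig edge 1124 had 1 read, as did 236705 of all 515046. With junctions at an IDR of 0.1 or less, 17.8% of the contigs had both edges marked within 2 bp and 36.9% neither.

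Short contigs of lower level, with the same length and IDR limits and an RPKM below 10, numbered 29748. Within 10 bp, 51.6% of the high-level and 53.9% of the lower-level contigs had a junction at both edges, and 10.5% of the high-level and 13.0% of the lower-level contigs had one at neither. Within 2 bp, both edges were marked in 21.96% of the high-level and 31.3% of the lower-level contigs. Contigs over 200 bp that met the RPKM and IDR limits numbered 11857, and of these 2.62% had both edges marked within 10 bp and 73.5% neither. A junction end inside or within 10 bp was found for 97.8% of the short high-level contigs, 93.1% of the lower-level set and 99.1% of the longer set. Regions of 1 contig table share their libraries, so these shares are descriptions with no test.

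The matched exons gave the offset of the edges directly. Of 1831 short high-level contigs matched to an annotated exon, none began or ended inside it. The edge stood outside the exon by a median of 2 bp, against 1 bp for the lower-level set. Edges fell exactly on the exon boundary in 17.0% of cases in the high-level set and 30.2% in the lower-level set. Both edges were exact for 41 contigs (2.24%). The source of the extra bases was not tested.

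**Figure D1:**
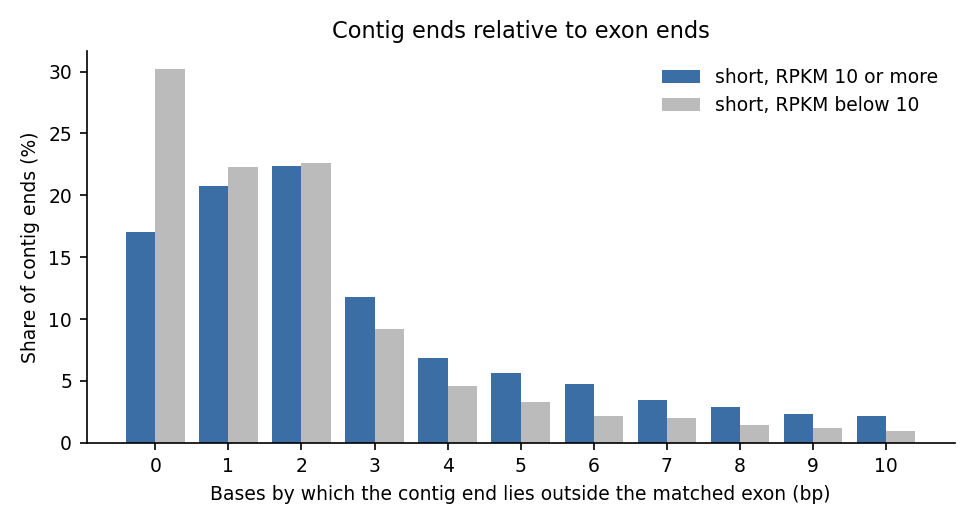
Share of contig edges (y axis, percent) by the number of bases by which the edge lay outside the matched exon (x axis, bp), for short contigs with an RPKM of 10 or more (blue) and below 10 (grey), both edges counted. The blue bars peak at 2 bp with 22.4% and stand above the grey bars at every offset of 3 bp or more, while at 0 bp they reach 17.0%, against 30.2% for grey.

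Neighbours on the same strand were close. For 1538 short high-level contigs (40.6%) another contig lay within 100 bp, against 30.8% of the lower-level set and 63.1% of the longer high-level set. The smallest gap of a short high-level contig was 11 bp. An overlap with a contig of the other strand was found for 4.17%, against 12.6% of the lower-level and 19.2% of the longer set. Contigs with an unmarked edge had the nearer neighbours, with a median gap of 76 bp where neither edge was marked within 10 bp, 121 bp with only the acceptor side, 89.5 bp with only the donor side and 228.5 bp with both.

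Length and level moved with the junction class. Contigs over 50 and up to 100 bp had both edges marked within 10 bp in 75.2% of 709 cases, those up to 150 bp in 55.9% of 1620 and those up to 200 bp in 34.5% of 1312. The 147 shortest, of 50 bp or less, had both in 42.2% and neither in 38.1%. By level, both edges were marked in 53.4% of the 2467 contigs at an RPKM of 10 to 20, 50.6% of 1057 at 20 to 50 and 39.3% of 191 at 50 to 100. Above that the classes are thinly filled, with 45, 17 and 11 contigs. Of the 11 at an RPKM of 500 or more, 2 had both edges marked, 3 had 1 and 6 had neither.

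**Figure D2:**
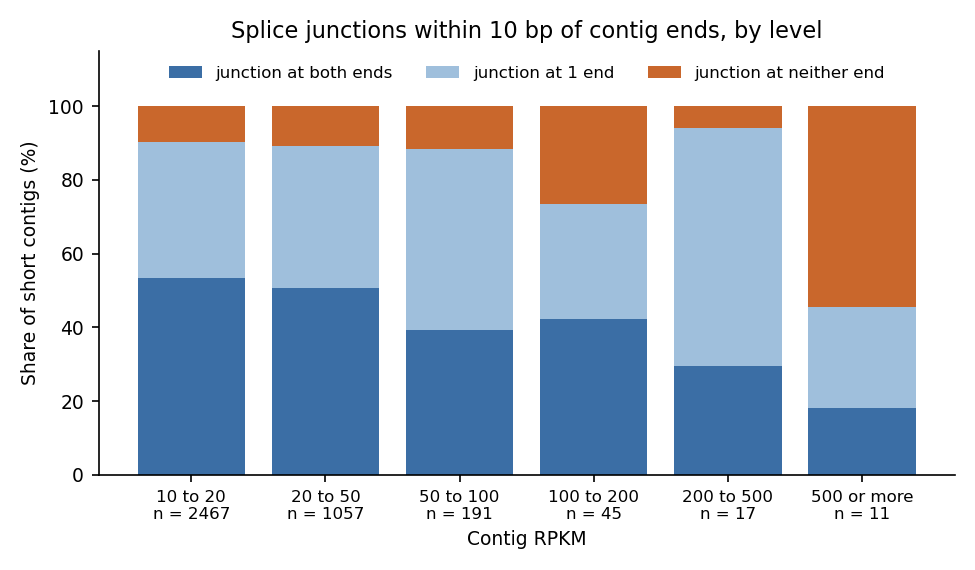
Share of short high-level contigs (y axis, percent) with a splice junction within 10 bp of both ends (dark blue), 1 end (light blue) or neither end (orange), by contig RPKM (x axis, classes with their number of contigs). Both ends are marked in 53.4% of the lowest class, and neither end in 6 of the 11 contigs of the highest.

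The contigs of highest level had few reads across their edges. The first, chr9:110183743-110183886 on the plus strand of mm9, had an RPKM of 5020 over 144 bp with no junction at either edge and its nearest same-strand neighbour 18745 bp away. The second, chrX:84483663-84483770 on the plus strand, had 2890, and the 4 junctions at its donor side carried 1 read in R1 and 3 in R2, the 2 read columns of the junction table. The third, chr19:8326707-8326826 on the minus strand, had 1650 and no junction at its edges. The fourth, chr6:49186438-49186618 on the minus strand, had 1420, with 1 read in R1 and none in R2 at each edge. These 4 contigs stood above every matched exon in RPKM, with at most 4 junction reads at an edge.

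Ranks 5 to 9 had RPKM of 1370, 1310, 1030, 858 and 754, and no edge of theirs carried over 9 reads in R1 or 12 in R2. Rank 6, chr2:90235259-90235381 on the minus strand, lay inside an intron of a reproducible junction. Rank 10, chr9:69312247-69312332 on the plus strand, was the exception: it had an RPKM of 740, and 5 junctions at its donor side carried 2323 reads in R1 and 4853 in R2. None of the 10 was matched to a gene by its structure, and none is named here.

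Genes were assigned by structure, since contigs and junctions are on build mm9 and the annotation on GRCm38. A contig was given a gene when the upstream intron, exon and downstream intron drawn by its junctions had the same 3 lengths as in 1 annotated gene on the same chromosome and strand. With junctions within 2 bp this named 665 contigs of 544 genes, or 79.9% of the 832 with both edges marked. Within 10 bp, a distance chosen after the offsets were seen, it named 1831 contigs of 1208 genes, or 93.7% of 1954. When chromosome and strand were left out of the match, all 1830 that then pointed to a single gene still fell on the right ones. The genes below are from the 10 bp match, and contigs with 1 or no marked edge carry no gene.

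The matched contigs were inner exons by construction, since the match needs an intron on both sides, and most were coding. The exon was wholly coding for 1753 (95.7%), partly coding for 61 and not coding for 17. In the lower-level set 94.9% were wholly coding. Exon lengths ran from 23 to 198 nt with a median of 116 nt. A length divisible by 3, which keeps the reading frame when an exon is left out, was found for 41.6%, against 40.0% for the lower-level set. The G and C content of the exons was 49.7%, against 47.8%.

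The matched exon of highest RPKM lay in C3, which encodes the central protein of the complement cascade. This exon 10, under chr17:57363483-57363607 on the minus strand, had an RPKM of 244 in a gene at 223.9 TPM in replicate 1 and 148.0 TPM in replicate 2. Reads across its acceptor junction numbered 669 in R1 and 764 in R2, those across its donor junction 2001 and 1566, and no read skipped it. The donor side thus carried more reads than the acceptor side in both read columns.

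Selenof, a selenoprotein of the endoplasmic reticulum, had an RPKM of 209 in exon 2 at 146.0 and 145.9 TPM for the gene in replicates 1 and 2. Rab7, the small GTPase of late endosomes, had 189 in exon 3 at 220.3 and 167.8 TPM. Sort1, the sorting receptor sortilin of the vesicles that hold the insulin-regulated glucose transporter in fat cells, had 162 in exon 9 and 143 in exon 2, at 293.6 and 226.6 TPM. Copb1 and Rer1, parts of the traffic between Golgi and endoplasmic reticulum, had 144 and 133. The Copb1 exon had few junction reads, 75 acceptor and 25 donor reads in R1 and 49 and 44 in R2. Its gene was at 30.2 and 31.3 TPM, with its other contigs at 17.1 and 25.9. The Rer1 exon had 1459 acceptor and 741 donor reads in R1 and 1950 and 946 in R2. None of these genes differed over 2-fold between the replicates.

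Enzymes were among the next. Pcx, the pyruvate carboxylase that feeds the citrate cycle, had an RPKM of 152 in exon 8 and 91.5 in exon 5. Hadh, an enzyme of fatty acid oxidation, had 113 in exon 2, and Cs, the citrate synthase, 112 in exon 3. Pkm, the pyruvate kinase of most tissues outside the liver, had 109 in exon 4, at 467.2 TPM in replicate 1 and 485.3 TPM in replicate 2. Cd36, the fatty acid transporter, had 134 in exon 7, where the acceptor side carried 528 reads in R1 and 971 in R2 and the donor side 1842 and 3310. Pkm had the highest gene level of these, while its exon stood below Pcx exon 8 and Cd36 exon 7 in RPKM. Across the 1831 matched contigs, Spearman's rho was 0.746 between RPKM and the mean reads of both flanking junctions, and 0.462 between RPKM and mean gene TPM over the 1830 in the gene tables. The contigs share libraries and genes, so these values are given as descriptions.

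Each of the 1207 matched genes found in the gene tables was at 1 TPM or more in both libraries. Their median was 25.96 TPM in replicate 1 and 23.84 TPM in replicate 2, against 14.2 and 12.7 TPM for all 14303 expressed genes. The rule took contigs of high level from the same libraries, so both values follow from the choice and are descriptions only. The share of genes with a matched short high-level contig was not highest among the most abundant genes. It was 2.02% of 6000 genes with a mean of 1 to 10 TPM, 15.1% of 5729 at 10 to 50 TPM, 11.7% of 1269 at 50 to 100 TPM, 7.64% of 890 at 100 to 300 TPM and 1.06% of 284 at 300 to 1000 TPM. None of the 131 genes at 1000 TPM or more had one, and 1 of them had a matched contig over 200 bp. Genes above 300 TPM are thus nearly missing from the named set, for which the cause was not tested.

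**Figure D3:**
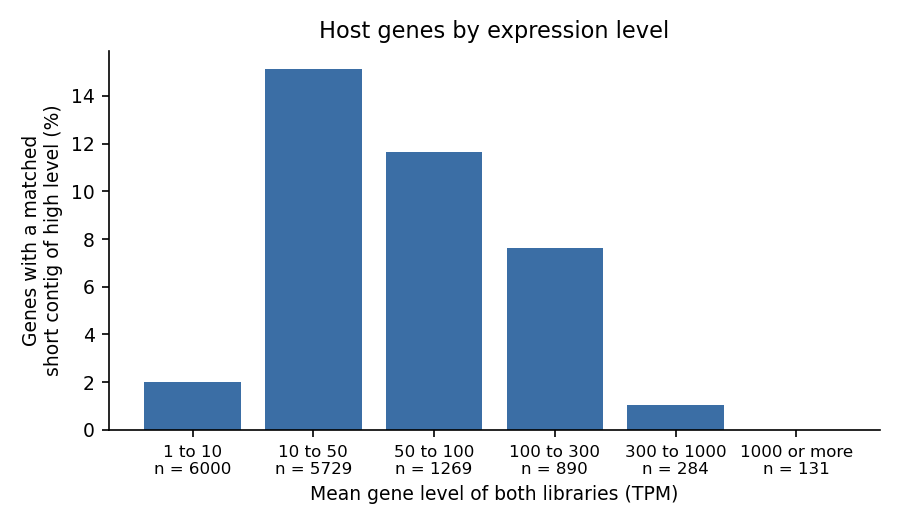
Share of expressed genes with at least 1 matched short high-level contig (y axis, percent) by the mean TPM of both libraries (x axis, classes with their number of genes). The share is highest at 10 to 50 TPM with 15.1% and is 0 among the 131 genes at 1000 TPM or more.

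The following gene lists were chosen with earlier results of these data known. Of the 28 adipocyte markers, 4 had matched short high-level contigs, 9 contigs in all, in Cd36, Me1, Acaca and Pparg. Me1, the malic enzyme that supplies reducing power for fat synthesis, had 1 contig at an RPKM of 42.3, and Pparg, the master regulator of fat cell formation, 1 at 19.1. The other 24 markers, with Adipoq, Fabp4 and Lpl among them, had none. Of the 33 epididymis genes none had one, and of the 88 ribosomal protein genes only Rpl7l1 did, at 14.3. The respiratory chain list had 3 of 86 genes with one, Ndufs1, Ndufs4 and Ndufa12, the glycolysis and housekeeping list 1 of 20, Pkm, and the splicing factor list 0 of 17. Mitochondrially encoded genes have no introns and so could not be matched. Across all expressed genes the share was 8.44%. That share covers genes of all levels, and no list count, here or below, was adjusted for gene level. The epididymis medians were 917.3 and 785.3 TPM in replicates 1 and 2. Those of the ribosomal protein list were 423.9 and 408.4 TPM, and those of the glycolysis and housekeeping list 591.2 and 626.3 TPM. Of all genes at 300 to 1000 TPM only 1.06% had such a contig, so low counts in these lists are not a trait of the gene class.

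Lists of other cell types were set beside the same 8.44%. Macrophage markers had 2 of 14 genes (14.3%), the share of the adipocyte list: Csf1r, the receptor of a macrophage growth factor, with contigs at 56.2 and 23.9, and Ctss, a lysosomal protease, at 11.8. Endothelial markers had 2 of 8 (25%), Kdr, a receptor of vascular endothelial growth factor, with 1 contig at 14.2, and Vwf, the von Willebrand factor, with 3 at 10.6 to 14.0. The smooth muscle list had 1 of 11, Mylk, at 10.3, and the list of B and T cells, of which 4 genes were expressed, 0 of 9. Of 12 sperm and spermatid genes, Gapdhs, the sperm form of the glycolytic enzyme, had 3 contigs up to 14.4, with the gene at 26.4 TPM in replicate 1 and 17.4 TPM in replicate 2. Translation factors had 3 of 17, Eif3h at 117, Eif3e at 28.2 and Naca at 12.5. The lists differ in size, and those of 8 to 12 genes could not reach the 13 genes of the matrix list below.

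Extracellular matrix genes were the list with most contigs. Of 25 genes, 13 (52.0%) had at least 1, against 8.44% of all expressed genes, with 53 contigs in all at a median RPKM of 18.8. The list's median level was 145.5 TPM in replicate 1 and 123.6 TPM in replicate 2. These genes have many exons, and the match needs exons with an intron on both sides, and the count was not adjusted for the number of exons. Fn1, the fibronectin that links cells to the matrix, had 7 contigs with RPKM from 37.8 to 90.2, at 103.3 and 100.9 TPM. Col15a1, a basement membrane collagen, had 4 at 23.8 to 42.3, and Col14a1, a collagen that binds to fibrils, 6 at 10.6 to 26.7. Col4a1 and Col4a2, the chains of the main basement membrane collagen, had 1 at 75.9 and 2 up to 26.3. Lamb1, a laminin chain, had 2 up to 35.9, Lama4 1 at 14.7, Col6a3 2 up to 53.7 and Col6a2 1 at 28.9.

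Fbn1, the gene of fibrillin 1, which forms the microfibrils of the matrix, had more short high-level contigs than any other matched gene. Its 13 contigs had RPKM from 10.5 to 35.6 with a median of 15.7, and 5 more exons were covered by short contigs at 6.65 to 9.56. The gene was at 23.7 TPM in replicate 1 and 26.6 TPM in replicate 2. Fibrillin is built from a row of small repeated domains, many of them encoded by 1 exon each. Of the 13 exons 12 had a length divisible by 3, and 10 were of 120 to 132 nt. The exception was the 83 nt exon 3 printed above, which had the lowest RPKM of the 13. Exon 36, of 123 nt, had the highest, with 269 acceptor reads in R1 and 271 in R2.

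Col5a2, a chain of the fibrillar collagen type V, came next with 9 contigs at 13.1 to 26.7, beside 19 lower-level contigs at 2.83 to 9.83. Its 7 contigs in exons 38 to 50 stood at 13.1 or more, while the matched contigs of exons 11 to 37 all stood below 10. The gene was at 13.22 TPM in replicate 1 and 20.03 TPM in replicate 2. Within 1 transcript the rule thus took the exons of the 3′ portion and 2 early ones, exons 5 and 7, at 15.5 and 16.7.

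**Figure D4:**
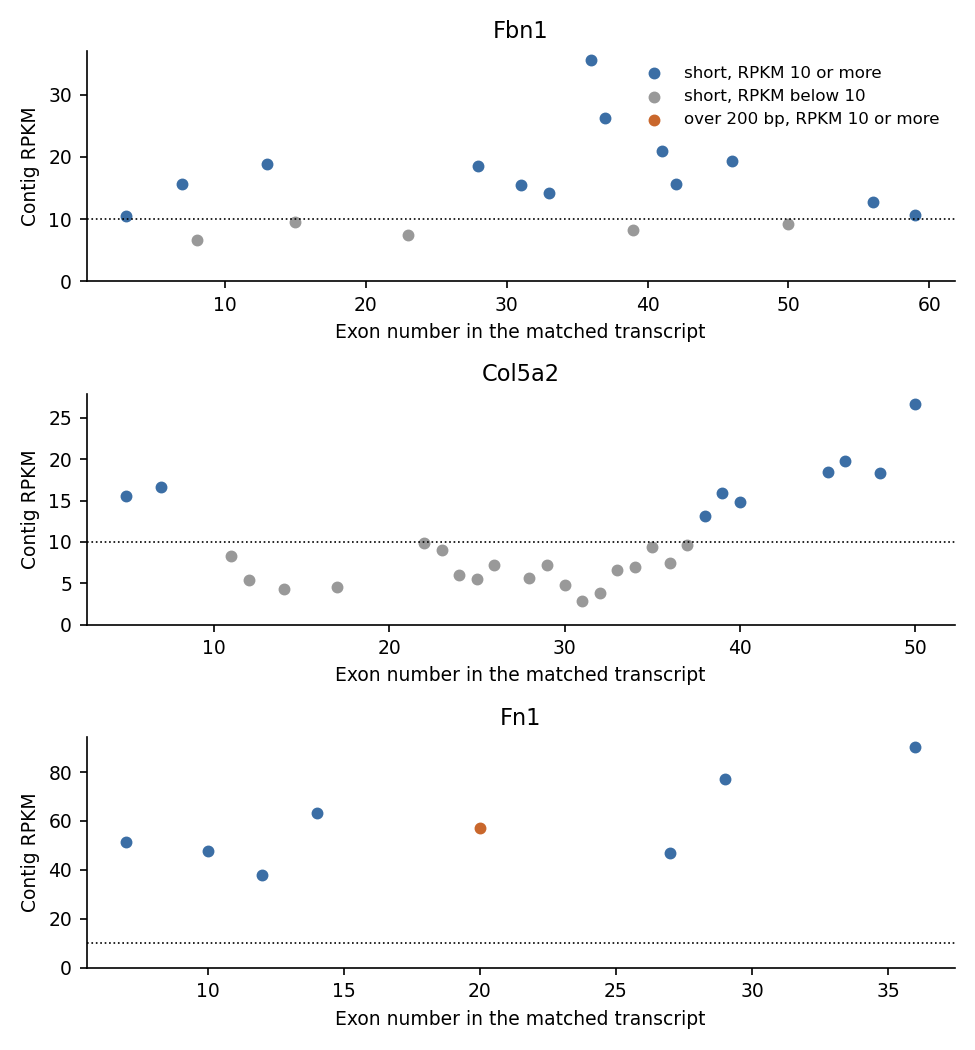
Contig RPKM (y axis) by exon number in the matched transcript (x axis) for Fbn1, Col5a2 and Fn1, with short contigs at an RPKM of 10 or more in blue, short ones below 10 in grey, a contig over 200 bp in orange and the limit of 10 as a dotted line. In Col5a2 the exons from 11 to 37 lie below the line and those from 38 on above it, and in Fn1 all 8 points lie between 37.8 and 90.2.

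Exons of 1 gene had different levels. In 260 genes with at least 1 matched short high-level contig and 5 or more matched short contigs, the highest RPKM was a median of 7.83 times the lowest, with quartiles of 4.65 and 13.7. These genes were admitted by their highest RPKM, so the ratio is a description only. Of the matched genes, 853 had 1 short high-level contig, 212 had 2, 81 had 3 and the rest 4 to 13. Pcca, a subunit of propionyl-CoA carboxylase, and Enpep, an aminopeptidase that cuts angiotensin, had 8 each. Psmd1, a proteasome subunit, Pam, which amidates peptides, Acss3, an acyl-CoA synthetase of mitochondria, and Efr3a, which anchors a lipid kinase at the plasma membrane, had 7 each, as Fn1 did. Acaca, the acetyl-CoA carboxylase of fatty acid synthesis, had 6, at 11.2 to 40.3.

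Ntrk2, which also had 6 contigs, showed a break within the gene; it was picked after its values were seen. It encodes TrkB, a receptor of brain-derived neurotrophic factor, known in a full form with a kinase domain inside the cell and in a truncated form without it. Its contigs in exons 5, 7, 8, 10 and 11 of the 18-exon transcript had RPKM of 30.8, 36.2, 22.1, 22.4 and 14.8. The next exon, of 100 nt, under chr13:58979523-58979625 on the plus strand and printed above, had 15.8. Downstream, exons 13 and 17 were covered by short contigs at 0.418 and 0.765.

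Junction reads from the end of that 100 nt exon took the same course. The intron of 53760 bp that leads to the last exon of the 12-exon transcript carried 89 reads in R1 and 146 in R2. The intron of 107539 bp that leads to the 189 nt exon of the 18-exon form carried 2 and 7. Of the reads on annotated introns there, the first made up 97.8% of 91 in R1 (95% Wilson interval 92.3 to 99.4) and 94.8% of 154 in R2 (90.1 to 97.3). The short form's junction thus held most reads in both read columns. Intervals here cover counting error only, since reads without molecular tags are not independent molecules.

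Fibrillar collagen exons had a structure of their own, which was also looked at after their values were seen. Fibrillar collagens wind 3 chains into a helix made of repeats of glycine and 2 other amino acids, so a glycine codon, which begins with GG, recurs every 9 bases. The following exons, each under a short high-level contig, are printed with GGN in capitals at each step of 9 bases from the first.
Col3a1 exon 18: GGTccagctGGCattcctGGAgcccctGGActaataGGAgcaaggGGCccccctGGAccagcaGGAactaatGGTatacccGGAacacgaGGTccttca
Col5a3 exon 17: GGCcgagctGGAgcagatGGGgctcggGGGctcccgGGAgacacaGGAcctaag
Col5a3 exon 20: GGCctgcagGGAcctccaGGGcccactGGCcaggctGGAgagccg
GG stood at 11 of 11 steps in the Col3a1 exon, and at 6 of 6 and 5 of 5 in the Col5a3 exons. The 18 contigs of this kind lay in Col5a2 (9), Col5a1 (4), Col5a3 (4) and Col3a1 (1). The Col3a1 contig, under chr1:45388517-45388622 on the plus strand, had the highest RPKM of them, 77.0, and the Col5a3 contigs ran from 23.8 to 42.9.

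Exon length was divisible by 9 in 14 of the 18 (77.8%), against 248 of the 1813 other matched short high-level contigs (13.7%). The other 4 exons were of 33, 57, 105 and 111 nt, so that all 18 were divisible by 3. GG opened 16 of the 18 exons (88.9%), against 8.94% of the others. In the lower-level set 38 of 40 fibrillar collagen exons were divisible by 9, so this length pattern was found on both sides of the RPKM limit. These exons share genes and a family, and no test was made.

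Reads that skip an exon were few at the matched short high-level contigs, all of which had junctions at both edges by the match and a high level by the rule. For 1811 of the 1831, both R1 and R2 had 20 or more reads at the exon, and inclusion was taken as the mean of acceptor and donor reads over itself plus the reads that skip the exon. No read skipped the exon in 1517 (83.8%), against 87.3% of the lower-level exons that passed the same limit of 20 reads. Above that limit the sets were not matched for depth, and exons with more reads have more occasion to show a skipping read. Inclusion was below 90% in both R1 and R2 for 13 exons (0.718%), against 137 of 4410 (3.11%) in the lower-level set, where the other matched exons of 15236 had too few reads. When only the junction between the annotated neighbours counted as skipping, 2 exons remained, in Papss1 and Alg14.

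Papss1 makes the sulfate donor of the cell. Its non-coding exon 2 in a 13-exon transcript, under chr3:131230464-131230644, had an RPKM of 21.8 and an inclusion of 52.2% in R1 (95% Wilson interval 44.8 to 59.5) and 49.4% in R2 (41.6 to 57.1). Alg14, an enzyme subunit of protein glycosylation, had 85.4% in R1 and 66.3% in R2 for exon 2 of a 3-exon transcript. Its acceptor side carried 0 and 5 reads and its donor side 129 and 156, so its inclusion rests on the donor side. Firre, a long non-coding RNA of chromosome X, had 83.8% and 78.2% for an exon with 1 and 3 acceptor reads.

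Of the 13 exons, 9 lay in Akr1b10, Acat2, Lyz1, Clca3a2 (3 exons), Cyp4b1, C4b and Tmem181b-ps. In these, 88.9% to 100% of the skipping reads were on junctions that reached past the annotated end of the gene. Several of these genes have near-identical copies beside them, where reads can be placed in the wrong copy, so their inclusion values are uncertain. Examples are C4b, a complement gene with 69.2% in R1 (65.7 to 72.6) and 68.8% in R2 (66.0 to 71.4), and Akr1b10 with 18.5% and 51.9%. Whether read placement set these values was not tested.

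The 2 libraries gave similar levels for most of the matched genes. Among the 543 genes of the 2 bp match in the gene tables, 12 (2.21%) were over 2-fold higher in replicate 1 and 6 (1.10%) over 2-fold lower, on the log2 scale of TPM plus 1. Over all 16920 genes whose expected counts averaged at least 20, those shares were 1.54% and 1.15%. How the matched genes stood to that background depended on the scale. TPM moved the median of all genes to a log2 ratio of 0.11. Under FPKM, whose median was 0.016, 8 matched genes (1.47%) were higher and 7 (1.29%) lower, against 0.928% and 1.31% of all genes. With expected counts scaled by TMM the matched counts were again 8 and 7, against 3.11% and 3.07% of all genes. With a pseudocount of 0.1 they were 12 and 6, against 4.22% and 2.13%. In the 10 bp match, on the scale of TPM plus 1, 18 (1.49%) of 1207 genes were higher and 14 (1.16%) lower. These shares lay near the 1.54% and 1.15% of all genes. With 1 group of 2 libraries no test was possible.

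Some of the 32 genes of the 10 bp match that passed in either direction are known from particular tissues. Those named here were picked from the 32 after their values were seen and do not stand for the rest. In bulk tissue fewer cells of a type and less RNA per cell cannot be told apart. Alb, the albumin of liver, had 4 contigs up to an RPKM of 39.0 and was at 31.6 TPM in replicate 1 and 3.54 TPM in replicate 2, a log2 ratio of 2.84. Muc5b, a secreted mucin, was at 96.5 and 32.6 TPM, with 53073 and 22310 expected counts. Alas2, the first enzyme of haem synthesis in red cell precursors, was at 30.9 and 11.1 TPM with 3 contigs. Pam was at 59.4 and 24.6 TPM, while its expected counts were 3975 and 4058, so its difference is one of TPM and not of counts. In the other direction Sfrp5, a secreted inhibitor of Wnt signals, was at 8.84 and 71.2 TPM, a log2 ratio of -2.88. Ctrb1, a pancreatic protease, was at 3.56 and 27.2 TPM, and Ltf, the lactoferrin of secretions and neutrophils, at 8.10 and 35.9 TPM with 3 contigs. The contigs of these genes carry an IDR of 0.01 or less by the rule, even where gene levels lay this far apart.

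**Figure D5:**
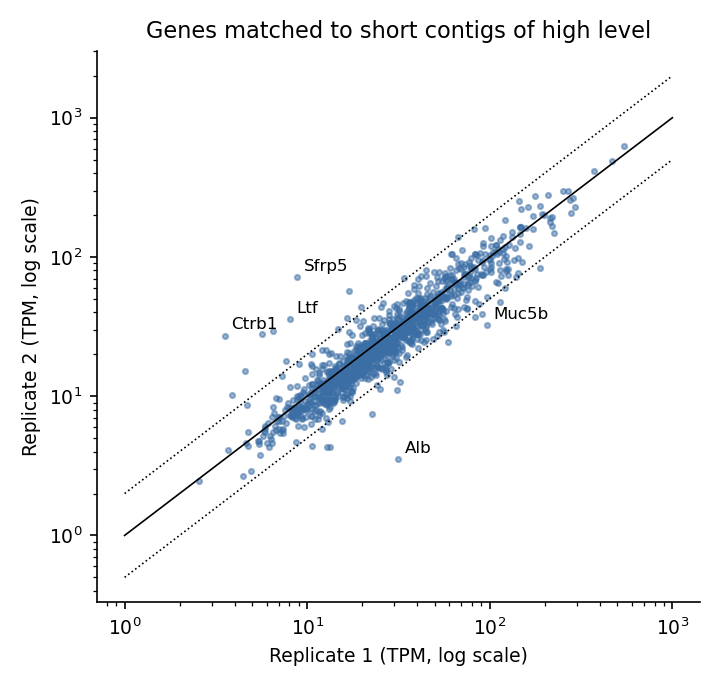
TPM of the 1207 matched genes in replicate 1 (x axis, log scale) and replicate 2 (y axis, log scale), 1 point per gene, with the line of equal levels and dotted lines at 2-fold. Most points lie between the dotted lines, with Alb at 31.6 TPM in replicate 1 and 3.54 TPM in replicate 2 the farthest below and Sfrp5 and Ctrb1 the farthest above.

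Junctions at the edges of short high-level contigs numbered 4841 within 2 bp, with a median of 106 reads, against 2 over all 515046 junctions. The contigs were chosen for a high level in the same libraries, so this contrast follows from the rule. Of the 2957 with 20 or more reads, scaled to equal totals of junction reads, 142 (4.802%) were over 2-fold higher in R1 and 145 (4.904%) over 2-fold lower. The background shares over all 118561 such junctions were 8.50% and 5.51%. These sets were not matched for read depth. With raw reads, 19172220 in R1 and 21609924 in R2 over all junctions, the counts were 88 (2.98%) higher and 232 (7.85%) lower, and the shares over all junctions moved in the same direction, to 5.83% and 8.51%. Among junctions with 50 or more reads, again scaled, 128 of 2847 (4.50%) at contig edges were higher in R1 and 130 (4.57%) lower. Over all 85133 junctions of that depth the counts were 4834 higher and 3281 lower. The share higher in R1 was again smaller at contig edges than over all junctions. The share lower in R1 was larger at contig edges, while among junctions with 20 or more reads it was smaller. The comparison thus depended on depth. The labels do not say which library R1 and R2 are.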

How the data were processed

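The deposited contigs and splice junctions are on build mm9 and pool both libraries. Per the accompanying notes, the gene tables used mm10 and GENCODE M4. Aligner, contig caller and quantifier: not given in the sources used here. For each contig the authors' table gives RPKM, scores and the IDR as a fraction, and the deposited junction table gives the count of reads in R1 and R2. The deposited gene tables gave expected counts, TPM and FPKM per library, computed by the authors, and the transcript tables were not used here.

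Contig edges were compared with junction ends on the same strand within 2 bp and 10 bp. No coordinate was carried between builds: genes were assigned by 3 matching lengths, and exon sequences were sliced from GENCODE M21 transcripts. The matching code was checked on simulated exons. Expressed means that both libraries had at least 1 TPM. Ratios are log2 of TPM plus 1, with replicate 1 on top, over genes whose expected counts averaged at least 20, and they understate the differences of weakly expressed genes. Junction ratios used a pseudocount of 0.5.

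Named were the 10 contigs of highest RPKM, those nearest the limits of the rule, the genes with most contigs and the highest contigs of each list. Other matched exons of highest RPKM, the skipped exons, the genes over 2-fold apart, Ntrk2 and the fibrillar collagens were named after their values were seen. The contigs and the lists were chosen with earlier results of these data known. Work was done in Python 3.11.15 with pandas 2.3.3, numpy 2.4.6 and scipy 1.17.1, and in R 4.3.3 with edgeR 4.0.16 (TMM) and DESeq2 1.42.0 (size factors) for scaling of rounded expected counts only. With 1 group no test between conditions was made. Some exons are not reported here. Alternatives covered the limits of the rule, the distance allowed, junction filters, scaling and each library alone.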

Additional observations from a re-analysis of the deposited data

How the results depend on the processing

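The number of short high-level contigs was 2476 at 150 bp or less, 8706 at an RPKM of 5 or more and 1321 at 20 or more, while a limit of 250 bp and other IDR limits kept it within 1.5 times of 3788. The share with a junction at both edges, 21.96% within 2 bp, was 2.69% for exact edges, 51.6% within 10 bp, 17.8% and 17.5% with junctions at an IDR of 0.1 or less and 0.01 or less, 17.6% with junctions of 10 or more reads and 17.6% at an RPKM of 20 or more. The share with neither, 29.2%, was 66.7%, 10.5%, 36.9% (IDR of 0.1 or less) and 33.9% (RPKM of 20 or more). Close neighbours were found for 28.7% within 50 bp and 54.3% within 200 bp. The 10 bp match, added after the data were seen, gave 1831 contigs in place of 665 and 1207 expressed genes in place of 543. Of its genes 32 (2.65%) were over 2-fold apart, in place of 18 (3.31%). Over all 16920 genes 1.54% were over 2-fold higher in replicate 1 and 1.15% lower, near the 1.49% and 1.16% of the 10 bp match. The median TPM of matched genes, 24.0 as a mean of both libraries, ran from 22.8 without replicate 1 to 24.4 without replicate 2. Exons below 90% inclusion fell to 2 in place of 13 with the stricter definition of skipping. For the edge shares and the match, the distance allowed is itself the change. No paired analysis was possible because there is 1 group. Unmarked contigs stay without a gene, and contig RPKM has no replicate values.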
